A study of Mus musculus with 72 samples.

Results

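Immediate-early genes are genes whose transcription starts within minutes of a stimulus, from factors already present in the cell and without new protein synthesis. The 10 members described here were chosen by symbol: Fos, Fosb, Fosl2, Junb, Egr1, Egr2, Nr4a1, Arc, Ier2 and Dusp1. All 10 are listed among the 22823 genes of the liver table and 9 among the 15759 genes of the table for the suprachiasmatic nucleus (SCN), the hypothalamic clock. Egr2 is not listed in the SCN gene table and was not analysed there. Every listed member passed the filter on low counts, which kept 20249 liver genes and all 15759 SCN genes.

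RNA was measured by poly-A RNA sequencing in 72 libraries of C57BL/6 mice aged 8 to 12 weeks. Mice ate either a diet deficient in methionine and choline (MCD) or an isocaloric control diet, freely, for 11 days. All of them were kept in 12 h light and 12 h dark for 10 days and then in constant darkness. They were killed every 4 h at 6 circadian times (CT00, CT04, CT08, CT12, CT16 and CT20), by cervical dislocation under dim red light, before dissection in room light. Liver came from the left lobe and SCN from laser microdissection of stained sections. The design has 24 groups (tissue by diet by time) with 3 libraries in each, which the titles give as 2 males and 1 female, while the protocol speaks of males. MCD feeding is a dietary model of steatohepatitis. The labels give no tie between a liver and an SCN library of the same mouse, and p-values measure the spread between libraries.

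Fos, Fosb and Fosl2 encode partners of Jun proteins in the dimeric factor AP-1, and Junb encodes one of those Jun proteins. Egr1 and Egr2 encode zinc finger factors that bind GC-rich sites, and Nr4a1 encodes an orphan nuclear receptor. Arc encodes a synaptic protein, Ier2 a nuclear regulator and Dusp1 a phosphatase that switches MAP kinases off. The classical routes to these genes run through ERK kinases to the serum response factor and its ETS partners, which act at CArG boxes, and through calcium or cAMP to CREB, which acts at cAMP response elements (CRE). In the SCN the Fos family is known for induction by light at night and for a daytime peak that persists in darkness, and in the liver for responses to injury, feeding and stress.

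The upstream stretches of 5 members are shown so that the CRE core can be seen in place. They are the members with an entry, a single start site and a stretch that touches no annotated exon, and all 5 carry the motif. Fosl2, whose stretch touches an annotated exon and whose window lacks the motif, and Egr2, with 5 start sites, are not shown. The stretches come from RefSeq promoters of build GRCm38.p6, which held entries for 7 of the 10 members (Fos, Fosb, Fosl2, Junb, Egr2, Nr4a1 and Dusp1) and none for Arc, Ier2 and Egr1. Each run spans positions -200 to -51 from the start site, 5′ to 3′ on the gene's strand, and capitals mark the CRE core TGACG, or CGTCA where it lies on the other strand.
Fos (chr12:85473690-85473839, plus strand): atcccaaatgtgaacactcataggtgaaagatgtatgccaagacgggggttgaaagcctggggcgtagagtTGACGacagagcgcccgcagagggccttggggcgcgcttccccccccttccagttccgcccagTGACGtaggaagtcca
Fosb (chr7:19310096-19310245, minus strand): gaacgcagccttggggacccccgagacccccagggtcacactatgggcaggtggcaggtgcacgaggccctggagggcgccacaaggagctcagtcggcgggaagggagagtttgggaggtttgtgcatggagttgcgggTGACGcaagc
Junb (chr8:84978799-84978948, minus strand): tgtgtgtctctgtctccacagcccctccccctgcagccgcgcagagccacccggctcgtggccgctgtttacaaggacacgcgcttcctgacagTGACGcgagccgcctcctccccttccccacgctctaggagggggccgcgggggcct
Nr4a1 (chr15:101266646-101266795, plus strand): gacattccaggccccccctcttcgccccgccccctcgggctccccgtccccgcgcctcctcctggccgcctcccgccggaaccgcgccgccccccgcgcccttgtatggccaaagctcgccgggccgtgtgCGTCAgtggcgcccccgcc
Dusp1 (chr17:26508523-26508672, minus strand): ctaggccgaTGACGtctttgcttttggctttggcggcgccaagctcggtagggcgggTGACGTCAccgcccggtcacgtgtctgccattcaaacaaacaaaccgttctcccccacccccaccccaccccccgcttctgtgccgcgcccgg

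In the 250 bases before the start site, searched on both strands, TGACG occurred in 17.8% of all 32851 RefSeq promoters. It occurred in 6 of the 7 members with an entry, the exception being Fosl2. Nr4a1 held 4 copies, Fos 2, Fosb 1 and Junb 1. Dusp1 held 3, a pair of which overlap within the full palindrome TGACGTCA at positions -143 to -136, a motif present in 1.55% of promoters. Dusp1 also held the E-box CACGTG, the motif of clock factors, which 6.02% of promoters hold; among the other 6 genes it lies before 1 Egr2 start site. Egr2 has 5 listed start sites, and TGACG lies before 3 of them. A CArG box, found in 1.47% of promoters, lies before 4 of the Egr2 start sites. It was not found in the windows of the other 6 genes. The AP-1 motif TGANTCA (6.75% of promoters) was found in none of these windows. The EGR motif GCGNGGGCG (4.7% of promoters) was found once each before Fosb, Fosl2 and Nr4a1. A TATA box, searched as TATAAA on the gene's strand and present in 7.59% of promoters, was found only before Fos among these 7. These matches describe the letters in the windows and are not sites of measured binding.

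Totals per library ranged from 52.6 to 86.7 M counts in liver and from 23.3 to 79.8 M in SCN. The tissues carried their own defining markers: the SCN neuron list (7 of 7 listed, Vip and Avp among them) summed to between 1630 and 4212 CPM (counts scaled to library size with TMM factors) in SCN, and 5 of its 7 genes were not listed in liver. The hepatocyte list, Alb, Ttr, Apoa1, Cyp2e1 and Serpina1a, was listed in full in liver, and 4 of its 5 genes were not listed in SCN. One liver library labelled control CT08, a male whose column carries no number of its own (here library a), stands apart. On a score over 1857 diet genes, scaled so that the mean control value is -1 and the mean MCD value 1, it reached 1.05, among the MCD libraries. Liver libraries also fell into 2 kinds by the level of mt-Nd6, a mitochondrial gene. The 21 low libraries were 8 control and 13 MCD, and the 15 high ones 10 control and 5 MCD. The labels do not name this split. Main results are given with and without library a, and within each kind, where that changes their call.

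In liver, 8 of the 10 members were higher on MCD over the 6 times and none was lower (edgeR, adjusted p under 0.05 over all genes). Egr2, Fosb and Fos had the largest changes, 10.3-, 6.96- and 4.79-fold. Egr1, Arc and Nr4a1 followed at 3.57-, 3.35- and 2.8-fold, and Junb and Fosl2 changed least among the 8, 1.8- and 1.44-fold. Ier2 and Dusp1 were not called. The count is read against a broad diet response: 46.6% of all liver genes were called, and 25.3% were called higher. The median log2 change of the 10 members was 1.61, against 0.02 for all genes tested. In whole tissue, more cells of a type and more RNA per cell cannot be told apart.

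Fos was low on control, between 0.236 and 1.22 CPM with a median of 0.589 over 18 libraries. On MCD it lay between 1.11 and 7.39 CPM, median 3.24. The groups barely overlapped: 17 of the 18 MCD libraries were above every control library. Its log2 change was 2.26 ± 0.19 (SE; edgeR adjusted p = 8.33e-10), in the same direction at 6 of 6 times.

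Fosb lay between 0 and 0.3 CPM on control (median 0.155, at most 24 counts a library) and between 0.173 and 2.77 CPM on MCD (median 1.21). In 1 control library no Fosb read was counted. Above the highest control library were 16 of the 18 MCD libraries. The log2 change was 2.80 ± 0.31 (edgeR adjusted p = 4.32e-08), again positive at 6 of 6 times.

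Fosl2, the third Fos relative, was expressed at 6.26 to 13 CPM on control (median 8.47) and 8.81 to 23.6 CPM on MCD (median 11.7). Here the diets overlapped more, with 8 MCD libraries above all controls. The log2 change was 0.52 ± 0.10 (edgeR adjusted p = 0.000175). Junb, their Jun partner, spanned 5.75 to 40 CPM on control (median 10.2) and 10.2 to 40.9 CPM on MCD (median 22.4). Only 1 MCD library exceeded all controls, while 9 controls lay below every MCD library. Its log2 change was 0.85 ± 0.14 (edgeR adjusted p = 2.92e-05), positive at 5 of 6 times and negative, without being called, at CT08. Junb overlaps Prdx2 on the opposite strand in GENCODE M21 (GRCm38), and Dusp1 overlaps Ergic1 there. The kit marks strand, but no source used here says whether the counting used it, so the counts of both genes are uncertain to that extent.

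**Figure D1:**
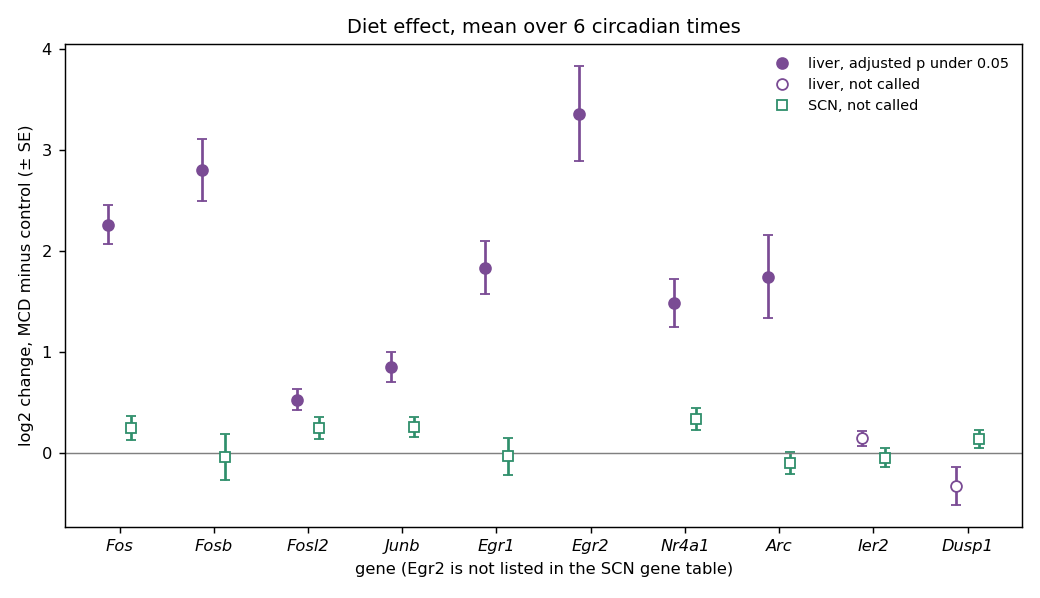
Log2 change on MCD against control, averaged over 6 circadian times, for each gene in liver (circles) and SCN (squares), with standard errors. Filled symbols passed an adjusted p of 0.05: 8 of the 10 liver values, from 0.52 for Fosl2 to 3.36 for Egr2, and none of the 9 SCN values, which lie between -0.10 and 0.33.

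Egr2, a zinc finger factor, was near the detection limit on control. Its control level spanned 0 to 1.23 CPM (median 0.117), with no read in 5 of the 18 libraries. On MCD it was counted in every library, at 0.475 to 6.68 CPM (median 1.19). The control maximum came from library a, at 125 counts, and the other 17 controls lay below all 18 MCD libraries. Its log2 change was 3.36 ± 0.47 (edgeR adjusted p = 2.28e-06) and 3.56 without library a.

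Egr1, its relative, had a wide control range, 1.62 to 75.7 CPM (median 7.26). MCD libraries lay between 4.76 and 119 CPM (median 28). The high control values were the CT20 males, at 75.7 and 74.8 CPM, while the CT20 female had 7.27 CPM. Its log2 change was 1.83 ± 0.26 (edgeR adjusted p = 3.31e-06).

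Nr4a1 lay between 0.556 and 3.85 CPM on control (median 1.18) and between 1.77 and 9.97 CPM on MCD (median 3.62). Most controls, 14 of 18, lay below every MCD library. The log2 change was 1.48 ± 0.23 (edgeR adjusted p = 1.03e-05), positive at 6 of 6 times. Arc had few reads, with 0 to 27 counts per control library (0 to 0.445 CPM) and 15 to 88 per MCD library (0.236 to 1.01 CPM). In 4 control libraries it had no read. Its log2 change was 1.74 ± 0.41 (edgeR adjusted p = 0.000919), positive at 6 of 6 times.

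Ier2 and Dusp1 were not called for the mean diet effect. Ier2 lay between 15.5 and 26.6 CPM on control and between 14.8 and 42.1 CPM on MCD, and its mean log2 change was 0.14 ± 0.08 (edgeR adjusted p = 0.132). Dusp1 spanned 9.59 to 98.7 CPM on control and 8.48 to 47.9 CPM on MCD, a log2 change of -0.33 ± 0.19 (edgeR adjusted p = 0.157). The Dusp1 diet groups overlapped throughout. With library totals alone in place of TMM factors, the median of all liver genes moved from 0.02 to 0.27, the share of called genes that were higher from 54.4% to 87.3%, and Ier2 was called at 0.40 (edgeR adjusted p = 8.39e-05). The other 8 members kept their call and direction there, and Dusp1 remained uncalled.

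Within the low kind of liver library 8 members were called, and within the high kind, with only 5 MCD libraries, 4 were: Fos, Fosb, Egr2 and Nr4a1. The same fits called 5108 of 18118 genes in the low kind and 5240 of 18238 in the high kind. Values of Fos were 2.34 and 1.95 in the low and high kinds, those of Fosb 3.00 and 2.17, of Egr2 3.39 and 3.12, and of Nr4a1 1.35 and 1.53. Fosl2, Junb, Egr1 and Arc were positive in the high kind, at 0.49, 0.60, 1.22 and 1.71, without being called there. Marker sums of other cell types overlapped between diets in every list and were not tested for diet. The macrophage list (6 of 6 listed) summed to 185 to 431 CPM on control and 241 to 511 CPM on MCD. The stellate cell list (3 of 4 listed) ran from 225 to 411 against 256 to 498 CPM. The endothelial list (5 of 5 listed) summed to 136 to 190 against 148 to 218 CPM. Neutrophil markers (3 of 4, Ly6g not listed) lay between 0 and 2.13 CPM on control and between 0 and 10.1 CPM on MCD, with medians of 0.392 and 2.19 CPM. The red cell list (4 of 4 listed) ran from 103 to 374 CPM on control, against 74.3 to 233 CPM on MCD. The list of astrocyte markers, a brain cell type, includes Aldh1l1, which hepatocytes also express, and summed in liver to 522 to 1892 against 406 to 1012 CPM. Their part in the results was not tested.

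At single times in liver, 25 of 60 pairs of member and time were called, all of them higher on MCD, and 5 without replicate 1 and 9 without replicate 2. Calls over all genes also fell in these fits, at CT12 from 3081 to 116 without replicate 1 and to 54 without replicate 2. DESeq2 called 30 pairs and limma 19. By edgeR the members called and the share of all genes called were 4 and 12.6% at CT00, 5 and 18.2% at CT04, 6 and 15.2% at CT12, 5 and 12.5% at CT16, and 5 and 11.3% at CT20. At CT08 no member was called by edgeR, DESeq2 or limma, 1 member had an unadjusted edgeR p under 0.05 (Fos), and 1.3% of all genes were called. Fos and Fosb were called at each of the 5 other times. Fos changes there ran from 2.09 at CT00 to 2.98 at CT20 and those of Fosb from 2.53 to 3.80. The Fosb calls at CT00 and CT04 were each lost on leaving out any 1 of 3 single libraries, with the CT00 change as low as 1.41. Egr2 was called at CT04, CT12 and CT20, with changes of 4.71, 3.81 and 4.50, of which the CT12 call was lost without any 1 of 4 libraries and the CT20 call without any 1 of 3. It missed at CT00 (3.42, edgeR adjusted p = 0.0502) and CT16 (3.58, 0.0545), and was called at both without library a (0.0378 and 0.0432), among other single libraries. DESeq2 called Egr2 at all 5 of these times and limma at none. Nr4a1 was called by edgeR at CT00, CT04 and CT12, with changes of 2.12, 1.73 and 2.05. These calls were lost without any 1 of 4, 4 and 3 single libraries (edgeR adjusted p up to 0.0945, 0.179 and 0.142).

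Egr1 was called at CT00, CT12 and CT16. At CT00 it was 3.22, 2.24 and 2.89 CPM on control against 44.7, 22.2 and 27.9 CPM on MCD, so the groups were far apart. CT12 gave a like picture, with 4.31, 1.62 and 2.78 CPM against 28.1, 47.7 and 27.6 CPM. Log2 changes were 3.48 ± 0.69 at CT00, 3.55 ± 0.69 at CT12 and 2.96 ± 0.66 at CT16, with edgeR adjusted p values of 0.00196, 0.00164 and 0.00462. At CT04 it was 0.11 ± 0.61, with control at 21.2 ± 5.25 CPM (SD, n = 3) and MCD at 23.4 ± 5.69 CPM. At CT20, with 1 low control library, it was 1.02 ± 0.62 and not called.

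Ier2 was called at CT16 (0.75 ± 0.19, edgeR adjusted p = 0.00966) and CT20 (0.60 ± 0.19, edgeR adjusted p = 0.0373). At CT16 the control libraries had 15.9, 23.4 and 15.5 CPM and the MCD libraries 26.8, 33.9 and 30.6 CPM, without overlap. The CT16 call was lost without control replicate 1 or MCD replicate 3 of that time (adjusted p up to 0.0694), and the CT20 call without control replicate 1 or 2 or MCD replicate 2 or 3 (change down to 0.40, adjusted p up to 0.227). Junb was called at CT12, CT16 and CT20, with changes of 1.20, 1.61 and 1.23. Its CT16 call held without any single library. The CT12 call was lost without any control library or MCD replicate 2 of that time (change down to 0.71, adjusted p up to 0.262), and the CT20 call without control replicate 1 or 2 or MCD replicate 1 or 3 (up to 0.121). Its CT16 libraries held 5.75, 8.11 and 6.74 CPM on control, against 18.5, 26.2 and 18.5 CPM on MCD. Fosl2 was called at CT04, at 1.05 ± 0.26 (edgeR adjusted p = 0.00545), a call lost without MCD CT04 replicate 1 (0.06). At CT12 Fosl2 was not called, and was on leaving out any 1 of 5 libraries (control CT08 replicate 3 or library a, MCD CT04 replicate 1, and MCD CT12 replicates 1 and 3). Arc was called at no single time by edgeR, with positive changes at all 6. At CT12 its change was 2.69 (edgeR adjusted p = 0.0763), and it was called there by DESeq2, by limma, and by edgeR without control CT08 replicate 3 (0.0475).

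At CT08 the control group includes library a, with 1.23 CPM of Egr2, 3.21 of Nr4a1 and 22.1 of Egr1, against 0.0935 to 0.448, 0.857 to 1.67 and 4.11 to 7.26 CPM in the other CT08 controls. Without it the CT08 change of Egr2 moved from 0.12 to 1.33, of Nr4a1 from 0.13 to 0.76, of Egr1 from -0.11 to 0.75 and of Arc from 1.13 to 2.76. None was called in either fit, and 1212 rather than 263 genes of the table were.

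**Figure D2:**
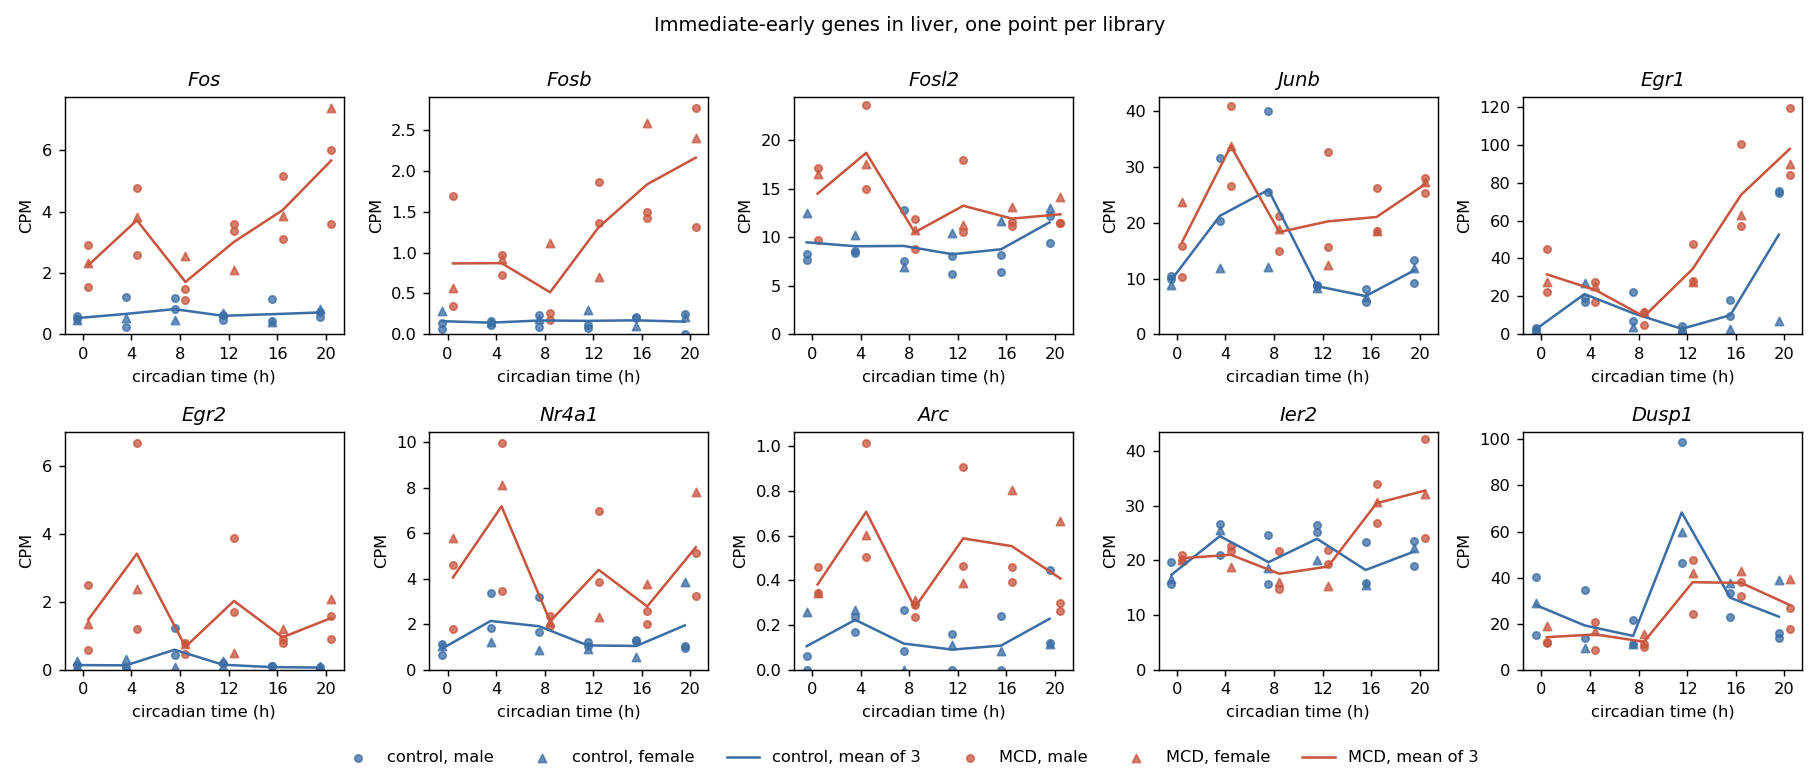
Level in CPM against circadian time in liver, one panel per gene and one point per library, with lines through the mean of 3 libraries per diet. Fos, Fosb, Egr2, Nr4a1 and Arc lie higher on MCD at most times, while Dusp1 and Ier2 overlap between diets for much of the day.

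**Figure D3:**
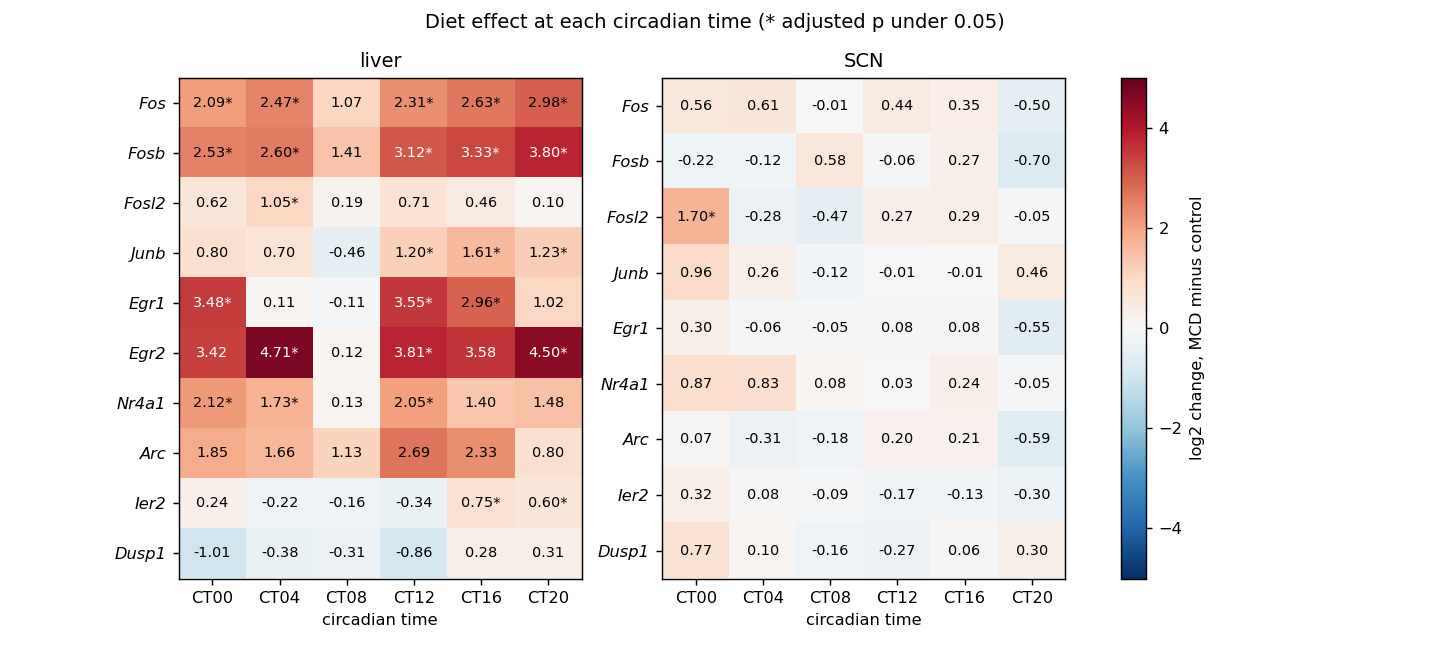
Log2 change on MCD against control at each circadian time, liver on the left and SCN on the right, with a star where the adjusted p was under 0.05. Liver holds 25 starred cells and none at CT08. In SCN the single starred cell is Fosl2 at CT00, at 1.70.

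Whether a member cycles over the day was tested as a 24 h cosine and sine component of the 6 group means, and its size is given as the peak-to-trough range on the log2 scale. In liver on control, Junb alone was called (range 1.60, peak at 5.35 h, edgeR adjusted p = 0.0013), while 17.8% of all genes were. Junb averaged 25.9 ± 13.9 CPM (SD, n = 3) at CT08 and 21.3 ± 9.83 at CT04, which lie within their spread, and 6.87 ± 1.18 at CT16. The CT08 libraries were uneven, at 12.1, 25.6 and 40 CPM. On MCD the Junb range was 0.27 and not called, with CT16 at 21 ± 4.48 CPM. The control call was lost without replicate 1 (edgeR adjusted p = 0.123) and within each kind of library, with ranges of 1.23 and 1.88. Those 3 fits called 565, 882 and 717 genes in all, against 3611.

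On MCD in liver 4 members were called, Egr1, Ier2, Dusp1 and Fosb, against 28.2% of all genes. Egr1 had a range of 2.89 with a peak at 18.7 h (edgeR adjusted p = 0.000701), rising from 9.45 ± 4.06 CPM (SD, n = 3) at CT08 to 97.7 ± 19 CPM at CT20. Control levels of Egr1 also differed by time, at 2.78 ± 0.496 CPM at CT00, 21.2 ± 5.25 at CT04 and 52.6 ± 39.2 at CT20. Its 24 h range on control was 1.23 and not called (edgeR adjusted p = 0.222). Ier2 had a range of 0.86 with a peak at 18.9 h (edgeR adjusted p = 0.000467). Dusp1 peaked at 15.7 h with a range of 1.75 (edgeR adjusted p = 0.00381), and on control at 14.6 h with a range of 1.13 that was not called (0.0926). The highest Dusp1 level on control was at CT12, 98.7, 46.5 and 59.6 CPM, and the libraries of that time had 47.9, 24 and 42.2 CPM on MCD, a pair of groups that overlap. Fosb had a range of 1.86 (edgeR adjusted p = 0.037), a call lost on leaving out any 1 of 10 MCD libraries: all 3 of CT04, replicates 1 and 2 of CT08, all 3 of CT16, and replicates 2 and 3 of CT20. Fos missed (range 1.09, edgeR adjusted p = 0.0633) and was called by DESeq2 (0.0406) and limma (0.00867). The Egr1 call was lost without replicate 2 (0.0602) and that of Ier2 without replicate 3 (0.0665). Within the low kind of library, where 3718 of 18118 genes were called, Egr1 and Ier2 were among them. Within the high kind only 50 of 18238 genes were called, so that no member being called there says little; the Ier2 range was 0.12.

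A test of the difference in the 24 h component between diets called Ier2 (range of the difference 1.05, edgeR adjusted p = 0.0142) among the 10 liver members, and 4.87% of all genes. Ier2 had ranges of 0.20 on control and 0.86 on MCD. Without replicate 1, 2 or 3 the Ier2 range was 1.20, 1.00 and 0.93, with adjusted p values of 0.136, 0.167 and 0.215. Those fits called 5, 4 and 537 genes in all, against 986 with every library, so the first pair says little about the Ier2 call. For Junb this test gave a range of 1.50 and an edgeR adjusted p of 0.0685, so its being called on 1 diet only is not a shown difference. It was called without any 1 of 4 libraries (control CT04 replicate 3, control CT08 replicate 3, MCD CT00 replicate 3 and MCD CT12 replicate 2). The Egr1 range of the difference was 2.38 (edgeR adjusted p = 0.109). DESeq2 also called Junb (0.0173) and Egr1 (0.044).

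In SCN no member was called for the mean diet effect by edgeR, DESeq2 or limma, and 3 of 9 had an unadjusted edgeR p under 0.05. The background was low as well, 10 genes or 0.0635% of those tested. The largest member changes were those of Nr4a1 (0.33 ± 0.11, unadjusted p = 0.00383, adjusted p = 0.486), Junb (0.26 ± 0.10) and Fosl2 (0.24 ± 0.11). The Fosl2 mean, counted among the 3, takes in its CT00 change of 1.70, which was singled out with results known. Its value is therefore a description, and it was positive at only 3 of 6 times. Fos was at 0.24 ± 0.12, Dusp1 at 0.14 ± 0.09, and Fosb, Egr1, Ier2 and Arc between -0.10 and -0.04. The median over the 9 members was 0.14, against 0.00 for all genes.

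Fosl2 at CT00 was singled out when the members were chosen, with results of these data known, so its values there are a description. The control libraries held 20.7, 14.7 and 21.8 CPM (1245, 402 and 800 counts), and the MCD libraries 65, 60.9 and 61.2 CPM (3296, 3537 and 3088 counts). The lowest MCD library lay far above the highest control, and the change was 3.25-fold, 1.70 ± 0.27 on the log2 scale (edgeR adjusted p = 0.0084). By edgeR Fosl2 was the single gene of 15759 called at CT00, or 0.00635%, while 3 genes were called with RLE factors, 4 by limma and 29 by DESeq2. Without control replicate 2 of CT00, the lowest of its group, the change was 1.53 with an adjusted p of 0.302, and without MCD replicate 1 it was 1.69 with 0.0518.

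Over the other 5 times the Fosl2 diet effect in SCN lay between -0.47 and 0.29, and none was called. On control its level was ordered CT04 (57 ± 11.2 CPM, SD, n = 3), CT08 (37.9 ± 8.96), CT00 (19.1 ± 3.81), CT20 (13 ± 3.98), CT12 (10.5 ± 0.536) and CT16 (8.84 ± 2.19). The last 3 lie within their spread of each other. On MCD the order began with CT00 (62.4 ± 2.32 CPM), followed by CT04 (46.9 ± 14.9) and CT08 (27.1 ± 3.38). The fitted peak was at 4.57 h on control and 3 h on MCD, with ranges of 2.62 and 2.63.

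Among the other members at CT00, Junb, Nr4a1 and Dusp1 had unadjusted edgeR p values of 0.000482, 0.00225 and 0.00208, and none passed the adjustment (0.316, 0.658 and 0.658). The Junb libraries held 17.2, 18.6 and 22.9 CPM on control, against 28, 32.4 and 53.3 CPM on MCD, a change of 0.96 ± 0.25. Dusp1 held 27.4, 25.8 and 25.6 CPM against 38.6, 43.4 and 52.2 CPM (0.77 ± 0.23). Nr4a1 held 49.3, 30.2 and 47.1 CPM against 79.2, 101 and 50.1 CPM (0.87 ± 0.26). In all 3 genes every MCD library lay above every control library of that time. Fos was at 0.56 ± 0.29, also without overlap, from 25.1 to 33.7 CPM on control and from 37.3 to 50 CPM on MCD.

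At the other SCN times edgeR, DESeq2 and limma called no member. Members with an unadjusted edgeR p under 0.05 numbered 2 at CT04 (Nr4a1 and Fos), 0 at CT08, CT12 and CT16, and 1 at CT20 (Arc). Of all genes 0.0444% were called at CT04, 0% at CT08 and CT12, and 0.00635% at CT16 and at CT20. Nr4a1 at CT04 had 20.1, 18.5 and 19 CPM on control, against 34.8, 31.8 and 36 CPM on MCD, groups that do not overlap, a change of 0.83 ± 0.26 (edgeR adjusted p = 0.621).

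**Figure D4:**
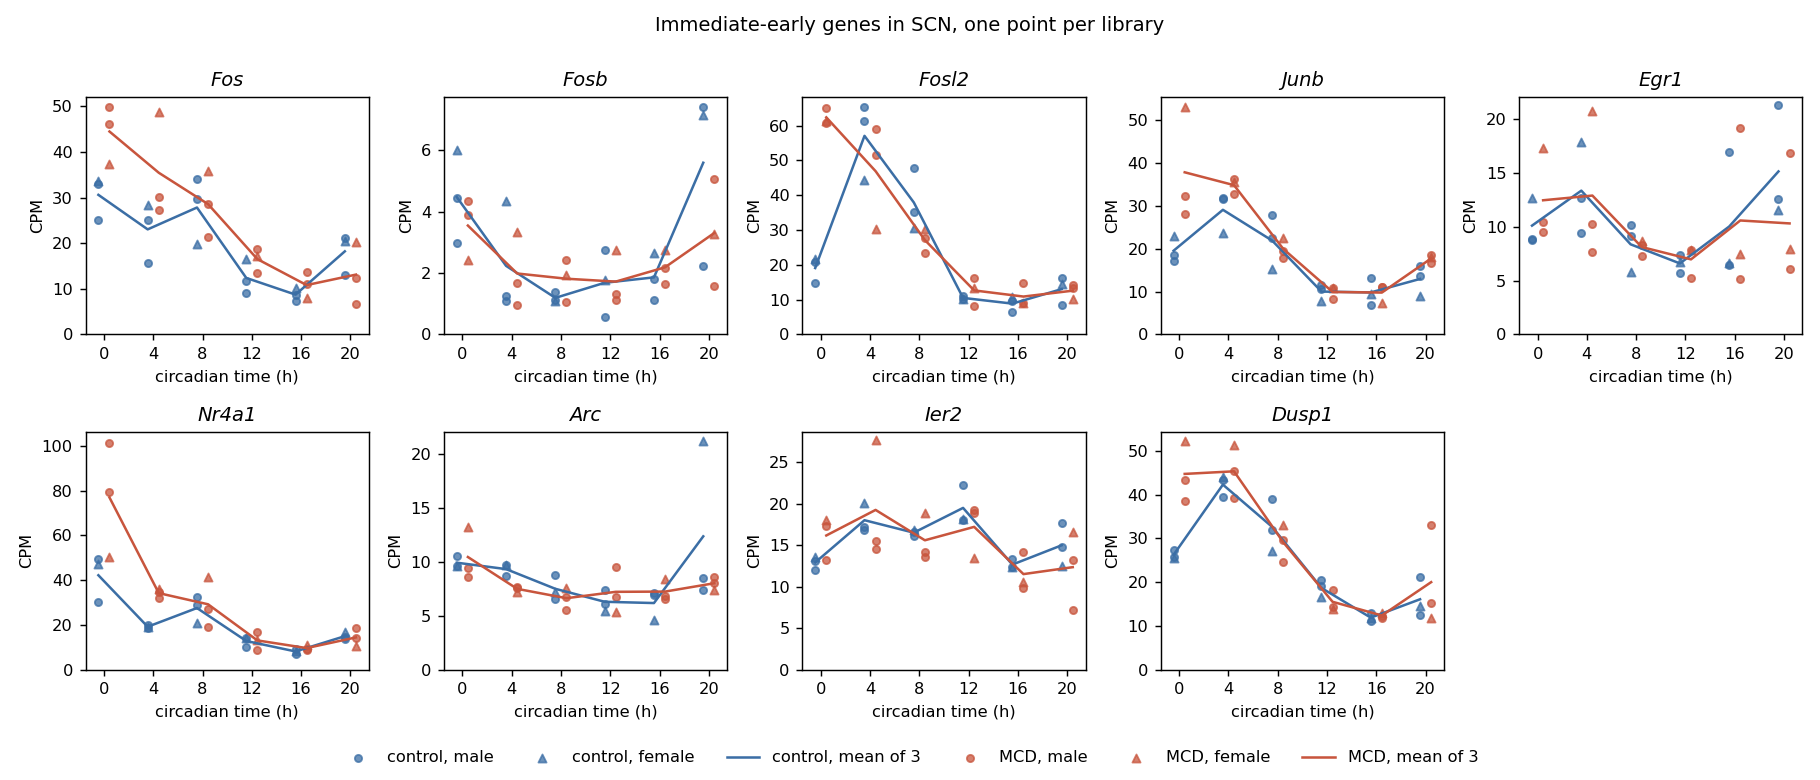
Level in CPM against circadian time in SCN, drawn as for liver. Fos, Fosl2, Junb, Nr4a1 and Dusp1 have higher means at CT04 and CT08 than at CT12 and CT16 on both diets. Fosl2 at CT00 is the point where the diets lie farthest apart, at 19.1 and 62.4 CPM.

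On control 7 of the 9 SCN members had a 24 h component, against 15.1% of all genes. Of these, 5 peaked in the early subjective day. Fosl2 had a range of 2.62 with a peak at 4.57 h (edgeR adjusted p = 2.36e-09), Dusp1 1.75 at 4.66 h (2.98e-07), Nr4a1 1.75 at 2.94 h (3.29e-06), Junb 1.63 at 3.7 h (3.28e-06) and Fos 1.64 at 3.08 h (7.15e-05). These hours are those of the fitted curve. Mean Nr4a1 was 42.2 CPM at CT00, 19.2 at CT04 and 27.6 at CT08. Mean Fos was 30.6, 23 and 27.8 CPM at these times, values that lie within their spread. Fosb and Arc peaked near the end of the subjective night, at 21.7 and 23.7 h, with ranges of 2.04 (edgeR adjusted p = 0.00747) and 0.86 (0.0224). Fosb averaged 5.59 ± 2.92 CPM (SD, n = 3) at CT20 and 1.19 ± 0.162 at CT08. At CT20 its control libraries held 7.41, 2.23 and 7.15 CPM, so 1 of the 3 lay low, and its call was lost without replicate 1 (edgeR adjusted p = 0.176) and without replicate 3 (0.0713). At CT20 the female had 21.2 CPM of Arc against 7.43 and 8.46 CPM in the males, and the Arc call held without that library. It was lost without control CT00 replicate 2 or control CT12 replicate 3. Egr1 (range 0.86) and Ier2 (0.45) were not called.

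On MCD 5 of the 9 were called, with 16.1% of all genes: Fos, Fosl2, Junb, Nr4a1 and Dusp1, the same 5 with daytime peaks on control. Their peaks lay between 2.14 h (Junb) and 3.66 h (Fos) and their ranges between 1.98 and 2.63. Nr4a1 spanned 76.9 ± 25.7 CPM (SD, n = 3) at CT00 to 9.69 ± 1.12 at CT16, a fitted range of 2.56. Fosb (edgeR adjusted p = 0.146) and Arc (0.285) were not called on MCD. Ier2 missed at 0.0544 and was called by DESeq2 at 0.0365. The test of the difference between diets called no member in SCN by edgeR, DESeq2 or limma, and 0.0127% of all genes. The unadjusted edgeR p was under 0.05 in 4 members: Fosl2 0.00547, Dusp1 0.00801, Junb 0.00859 and Nr4a1 0.0353. Fosb and Arc, called on control alone, had 0.434 and 0.436. The Fosl2 value takes in its CT00 libraries, which were singled out with results known, so it is a description.

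**Figure D5:**
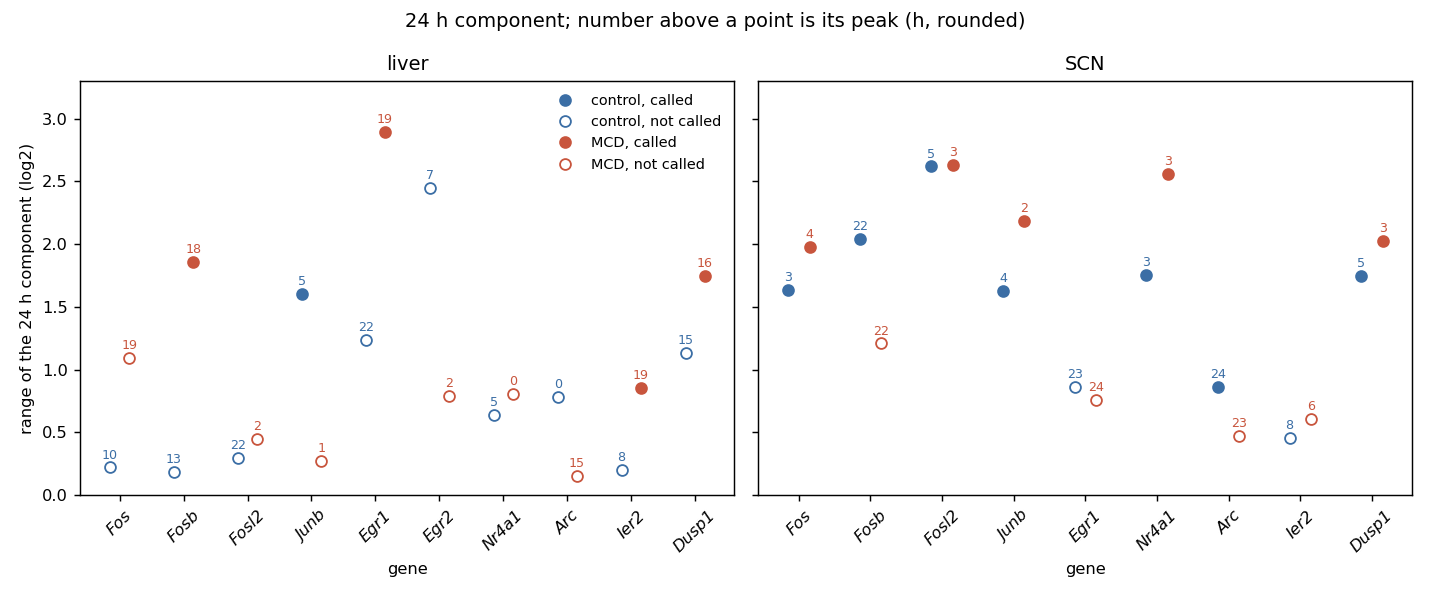
Peak-to-trough range of the fitted 24 h component on the log2 scale for each gene, liver on the left and SCN on the right, with control in blue and MCD in red and the peak hour above each point. Filled points passed an adjusted p of 0.05: 1 gene on control and 4 on MCD in liver, and 7 and 5 in SCN.

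The diet effect differed between the tissues in 6 of the 9 members measured in both, all of them lower in SCN than in liver, while 34.7% of the 14491 genes common to the tables were called. The SCN-minus-liver difference was -2.02 ± 0.22 for Fos (edgeR adjusted p = 7.88e-10), -2.83 ± 0.37 for Fosb (4.44e-08) and -1.87 ± 0.32 for Egr1 (8.18e-06). For Arc it was -1.83 ± 0.35 (4.37e-05), for Nr4a1 -1.15 ± 0.26 (0.000401) and for Junb -0.59 ± 0.18 (0.0092). Fosl2 (-0.28 ± 0.16), Ier2 (-0.19 ± 0.12) and Dusp1 (0.47 ± 0.21) were not called. The Junb call was lost without replicate 1 (0.0977) and without replicate 2 (0.0859).

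No member differed between the sexes in either tissue by edgeR, DESeq2 or limma, while 9.44% of liver genes and 9.89% of SCN genes did. Unadjusted edgeR p values under 0.05 numbered 0 in liver and 2 in SCN, those of Fosb (0.57 ± 0.24, female minus male) and Fos (0.26 ± 0.13). All females carry replicate number 3, so sex and number cannot be told apart. The interaction of sex with diet called no member by any of the 3 tools. It had 0 unadjusted edgeR p values under 0.05 in liver, with 1.77% of genes called, and 1 in SCN (Junb, 0.49 ± 0.20), with 0% called.

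All members but Arc in SCN varied more between libraries of a group than the median gene of their level. Their biological coefficient of variation in liver ran from 0.164 (Ier2) to 0.907 (Egr2), against a median of 0.211 over all genes. Among genes of the same expression decile, Egr1, Dusp1 and Egr2 stood at the 98.9, 97.4 and 95.9 percentile in liver, and Fos, Egr1, Fosl2 and Nr4a1 at the 97.3, 96.6, 95.7 and 95.7 percentile in SCN. Fosb and Arc were less extreme, at 77.8 and 67.1 in liver and at 71.2 and 41.5 in SCN. Fos, high in SCN, stood at 75.7 in liver.

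Over the 36 liver libraries the levels of member pairs had a median Pearson r of 0.56 over 45 pairs, highest for Fos with Fosb (0.87) and lowest for Junb with Dusp1 (-0.25). Once group and sex were removed the median was 0.26, highest for Junb with Nr4a1 (0.66). In SCN the median was 0.31 over 36 pairs, highest for Fosl2 with Dusp1 (0.90) and Junb with Dusp1 (0.88), and 0.14 after group and sex were removed. These libraries share diets, times and depth, and the values are descriptive. The genes outside the set whose levels followed the mean standardised level of the members most closely in liver were Btg2 (r = 0.93), Bcl10 (0.92), Atp6v1b2 (0.89), Arhgef2 (0.88) and Jund (0.87). On residuals they were Btg2 (0.89), Bcl6b (0.82), Dip2b (0.80), Micall2 (0.78) and Egr3 (0.77). In SCN they included Csrnp1 (0.87), Nr1d1 (0.85), Rasl11b (0.80) and Fabp7 (0.78). SCN residuals gave Arfip2 (0.67), Nme3 (0.65), 2610306M01Rik (0.61), Gm5781 (0.60) and Gm34432 (0.60).

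Other immediate-early genes were taken as 2 further lists, of transcription factors and of effectors such as phosphatases and feedback regulators, together with a list of kinases and factors upstream. In liver, where 46.6% of all genes were called and 25.3% were called higher on MCD, 11 of the 14 tested transcription factors rose and none fell. Their median log2 change was 1.04, against 0.02 over all genes. Atf3, a stress-induced factor, changed by 3.78 ± 0.31 (edgeR adjusted p = 8.14e-10), Jun, the main partner of Fos, by 1.88 ± 0.20, Klf6 by 1.44 ± 0.15 and Jund by 0.86 ± 0.09. Of 24 effectors 15 rose and 1 fell, with a median of 0.60. Gadd45b, a growth arrest and stress gene, changed by 3.48 ± 0.26 (edgeR adjusted p = 1.09e-10), the ERK phosphatase gene Dusp5 by 1.68 ± 0.18, Ier3 by 1.55 ± 0.15 and Ier5 by 1.07 ± 0.13. Of the 12 upstream genes 4 rose and 3 fell: Mrtfa 0.34 ± 0.08 and Mapk3 0.31 ± 0.07 among those that rose, and Elk4 -0.26 ± 0.05 among those that fell. Their median was 0.00.

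At CT08 in liver, no member and 1.3% of all genes were called. Of the lists, 0 of the 14 transcription factors and 1 of the 24 effectors, Ier3 (1.42 ± 0.36, edgeR adjusted p = 0.0431), passed there. The SCN lists held no gene called for the mean diet effect, of 13 transcription factors, 22 effectors and 12 upstream genes. Over all SCN genes 0.0635% were called. On control, where 15.1% of all SCN genes had a 24 h component, 3 of the 13 transcription factors, 13 of the 22 effectors and 2 of the 12 upstream genes had one. On MCD, where 16.1% of all genes had one, the numbers were 6, 14 and 2. The clock gene Per1, itself CREB-responsive, had a range of 2.45 with a peak at 6.48 h on control and 2.37 at 5.02 h on MCD. Dusp4 had ranges of 4.06 and 4.61, with peaks at 5.96 and 4.74 h. Nr4a3, a relative of Nr4a1, had ranges of 1.32 and 1.60, with peaks at 5.61 and 4.76 h, and Sik1 1.83 and 1.91, with peaks at 4.96 and 3.31 h. No listed gene passed the test of the difference between diets in SCN, while 0.0127% of all genes did. For the tissue difference in diet effect, where 5025 of 14491 genes were called and 2737 of them were lower in SCN, 7 of 12 transcription factors were lower in SCN than in liver, led by Atf3 (-4.01 ± 0.37), and so were 9 of 22 effectors, led by Gadd45b (-3.49 ± 0.28), with 1 effector higher. Of the 12 upstream genes 4 were lower and 2 higher.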

How the data were processed

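Per the submitters' processing notes, the upstream tools named are Trimmomatic, HISAT2, StringTie and DESeq2 with genome build GRCm39; the notes as used here list neither roles nor versions. For each tissue the authors deposited a gene table of raw counts, without normalization, whose 36 columns were matched to libraries by time, diet, sex and number. Both control CT08 male columns of a table carry the same name and were kept in their group without a number. No column of per-sample values was left out (0), and the exon counts were not used here.

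Counts were tested with edgeR 4.0.16 (R 4.3.3): TMM factors, filterByExpr with a minimum count of 10, robust quasi-likelihood fits of the 12 groups of diet and time plus sex, 1 fit per tissue and 1 over all 72 libraries for the tissue difference. P-values were adjusted by Benjamini-Hochberg over all genes of a fit, and called means an adjusted p under 0.05. A 24 h rhythm is a 2-coefficient test of the cosine and sine components of the 6 group coefficients of a diet. CPM use TMM factors; correlations use log2 CPM with a prior count of 2. Promoter motifs were searched in the 250 bases before RefSeq start sites.

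Alternatives were RLE factors, library totals, DESeq2 1.42.0, limma 3.58.1, no filter, no sex term, a replicate block, leaving out replicates and single libraries, and a term for the kind of liver library. Fits within each kind were added after seeing the data. They modelled each diet by a mean, a cosine and a sine, plus sex, in place of the group coefficients of the main fit. The test scripts were run on simulated data first. The members and lists were chosen with earlier results of these data known. Named genes outside the set are, per list and comparison, up to 4 called genes with the smallest adjusted p, shown in part, and the 5 most alike per tissue and measure; some of these genes are not reported here.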

Additional observations from a re-analysis of the deposited data

Results flagged for a closer look

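The diet effect on 6 members differed between SCN and liver by the test of that difference, over all 72 libraries (edgeR). On the log2 scale, SCN minus liver, it was -2.02 for Fos, -2.83 for Fosb, -0.59 for Junb, -1.87 for Egr1, -1.15 for Nr4a1 and -1.83 for Arc, all lower in SCN. The Junb difference lost its call without replicate 1 (edgeR adjusted p = 0.0977) and without replicate 2 (0.0859). The tables list different numbers of genes, and the test covers those listed in both. In liver the 24 h component of Ier2 differed between the diets, by a range of 1.05 (edgeR adjusted p = 0.0142). Without replicate 1, 2 or 3 the Ier2 range was 1.20, 1.00 and 0.93 and not called (edgeR adjusted p = 0.136, 0.167 and 0.215), in fits that called 5, 4 and 537 genes in all. Within the low and high kinds of liver library, where 10 and 0 genes were called, it was 1.14 and 0.47.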

How the results depend on the processing

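The 8 liver members called for the mean diet effect stayed 8 under RLE factors, DESeq2, limma, no filter, no sex term, the kind term and the leave-outs; library totals gave 9, and the high kind of library 4, a drop whose cause was not tested. Member-time pairs called in liver numbered 25, 30 by DESeq2 and 19 by limma, and ran from 5 to 29 over the leave-outs, lowest without replicate 1 and 9 without replicate 2; fewer libraries were fitted. Liver rhythms on control called 1 member, 2 by DESeq2 and by limma, 0 within each kind, and 0 to 2 over the leave-outs. On MCD they called 4, with 2 within the low kind, 0 within the high kind and 2 to 5 over the leave-outs. The liver rhythm difference called 1, with 3 by DESeq2, 0 within each kind and 0 to 2 over the leave-outs. In SCN the pairs called numbered 1, and 0 to 1 over the leave-outs; the Fosl2 change at CT00 ran from 1.53 to 1.86 and lost its call without replicate 1 (adjusted p = 0.636), without replicate 3 (0.0892) and without 2 single libraries. Other causes were not tested. SCN rhythms called 5 to 7 members on control and 5 to 6 on MCD over the leave-outs. Members were also taken singly, single times and single-library leave-outs included, for comparisons called in at least 1 setting. Calls stayed on their side of the threshold in 2967 values, were lost in 136 and gained in 71. None reversed, which required calls of opposite sign in both fits. For a single time, leaving out a library of another time hardly moves the change, so this tally is no measure of robustness.

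Replicate numbers were not taken as pairs, since not every same-numbered control and MCD pair had r over 0.1. In liver r was positive throughout, from 0.07 to 0.43, and over 0.1 in 13 of 16 pairs, so those libraries shared some deviation; in SCN it ran from -0.086 to 0.28, over 0.1 in 8 of 16. A replicate block needs numbered libraries, so both unnumbered control CT08 males of each tissue were left out of it. In liver this left 34 libraries, without library a. Only 1 control library remained at CT08 in each tissue, so changes alone are given. The median member change was 1.86 in liver and 0.17 in SCN, against 1.61 and 0.14 in the main fits. Fosl2 at CT00 in SCN was 1.71. The block and the set of libraries changed together. Depth limits Arc, Fosb and Egr2 in liver control libraries, which hold 0 to 27, 0 to 24 and 0 to 125 counts.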
